A study of Mus musculus with 20 samples.

Results

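The integrated stress response is a program by which cells answer shortage of amino acids, unfolded protein in the endoplasmic reticulum (ER), heme deficiency or double-stranded RNA. Each of these stresses is read by its own kinase, all of which phosphorylate the translation initiation factor eIF2α, and the phosphorylation lowers protein synthesis in general while it raises translation of the mRNA for the transcription factor ATF4. ATF4 then acts with C/EBP family partners on genes for amino acid synthesis and transport, redox defence and stress signalling, so that the mRNA of its targets, rather than that of Atf4 itself, is the usual transcript readout of the pathway. In liver the program is known to respond to diets that lack an amino acid and to ER stress.

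A set of genes of the program, taken by name from the gene table, was followed in the livers of mice fed a control diet or CDAHFD, an amino acid-defined high fat diet without choline, with and without thrombospondin-1 (TSP-1, gene Thbs1). They are 10 of the 38924 genes in the table and all 10 were among the 14524 genes tested. Atf4, Atf5, Atf3 and Ddit3 encode transcription factors, Trib3 a pseudokinase that restrains the program, Asns, Psat1 and Phgdh enzymes of amino acid synthesis, Chac1 an enzyme that breaks down glutathione, and Sesn2 a leucine sensor upstream of mTORC1. The rule uses gene names, but the set was chosen by a reading of earlier results from these same FPKM values in all 4 groups. The values below, with the FDR of each gene over all tested genes, therefore describe these mice and are no independent support for a response.

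Each group held 5 male mice: C57BL/6J on control diet (NDWT), TSP-1 knockout on control diet (NDKO), C57BL/6J on CDAHFD (HFWT) and TSP-1 knockout on CDAHFD (HFKO). All were bought at 5 weeks of age, acclimated for 1 week and fed for 12 weeks. The knockout is a germline stock, so every cell type of the liver carries it. By the study's account CDAHFD lacks choline, is limited in methionine and is high in fat, and these features cannot be told apart here. Whether the control diet also supplies free amino acids is not given in the sources used here. Liver poly(A) RNA was sequenced, and libraries held 15641545 to 23276322 fragments assigned to genes. Thbs1 went against the labels on the control diet. Its FPKM (fragments per kb of gene, scaled to the fragments assigned in the library) was 0.197 ± 0.103 (SD, n = 5) in NDWT and 1.30 ± 0.390 in NDKO, against 4.62 ± 1.22 in HFWT and 3.44 ± 0.547 in HFKO. The genotypes are therefore given as the libraries were labelled, and every direction between genotypes rests on those labels.

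All 8 hepatocyte markers, albumin among them, were present in every group, with a summed level of 25576 to 45047 FPKM over the 20 livers. A gene was called different at a Benjamini-Hochberg false discovery rate (FDR) under 0.05 over all tested genes and an absolute log2 fold change (log2FC) above 0.58, in 1 limma fit of log2(FPKM + 0.1) over the 20 livers. Fold changes are on that scale and understate the change of the genes with the lowest levels. The median log2FC of all tested genes was itself 0.53 for CDAHFD against control diet in the libraries labelled WT and 0.50 in those labelled TSP-1 null. Diet changes of the members are accordingly also given after median of ratios scaling, which removes most of that shift.

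The C/EBP-ATF response element is the composite site at which ATF4 and a C/EBP factor bind together. Its core, TGATGNAA, was searched on both strands from 250 bases before to 50 bases after each start site in the RefSeq promoters of GRCm38.p6, in which all 10 members were found. Atf5 and Psat1 had 2 promoters each. Both Psat1 windows, chr19:15925010-15925309 and chr19:15924573-15924872, lie inside the gene span given below and not at its upstream end. The core was present in 4 of the 10 members and in 4.51% of the 27025 gene symbols of the table. Of these 4 genes, Atf3, Trib3 and Asns were called higher on CDAHFD under both labels and Chac1 under neither. Ddit3, Psat1 and Phgdh, which had no match, were also called higher under both labels. The 30 bases around each match are shown on the strand of the gene, with the core or its reverse complement in capitals.
Atf3: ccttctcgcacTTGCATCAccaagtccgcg
Chac1: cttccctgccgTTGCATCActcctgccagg
Trib3: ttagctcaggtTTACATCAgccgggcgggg
Asns: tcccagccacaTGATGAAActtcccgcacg
The Atf3 window lies at chr1:191183425-191183454 on the minus strand, the Chac1 window at chr2:119351038-119351067 on the plus strand, the Trib3 window at chr2:152344028-152344057 on the minus strand and the Asns window at chr6:7693214-7693243 on the minus strand. Atf3 and Chac1 hold the same 8 letters, at -110 to -103 and at -193 to -186 from the start. The Asns core stands at -23 to -16 and reads in the opposite direction to the other three, and the Trib3 core lies past the start, at 15 to 22. The letters CCACG, a part of the ER stress element that does not overlap the first core, occurred in 7 of the 10 members and in 35.5% of all symbols. A match is a description of the letters and shows no binding.

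On CDAHFD, Atf3, Ddit3, Trib3, Asns, Psat1 and Phgdh were called higher in livers of both genotype labels, while Chac1 and Sesn2 were called in neither. In the libraries labelled WT, 6 of the 10 members were called higher and 0 lower, where 44.1% of all tested genes were called higher and 4.62% lower. In the libraries labelled TSP-1 null, 6 were called higher and 1, Atf5, lower, beside 41.9% and 4% of all tested genes. The diets did not overlap, CDAHFD being higher, for 6 members under the WT label and 7 under the TSP-1 null label, where this held for 50.5% and 52.7% of all tested genes. Psat1 and Phgdh are 2 of the members in each of these counts and had no control diet library above the filter on low values, as had 1185 of the 14524 tested genes, so that a diet difference was built into their being tested. The members' median log2FC was 1.09 and 1.11, against the medians of all genes of 0.53 and 0.50. After median of ratios scaling 5 members were called higher and 1 lower in both, beside 22.7% and 22.2% of all genes called higher and 15.4% and 13.6% called lower.

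**Figure D1:**
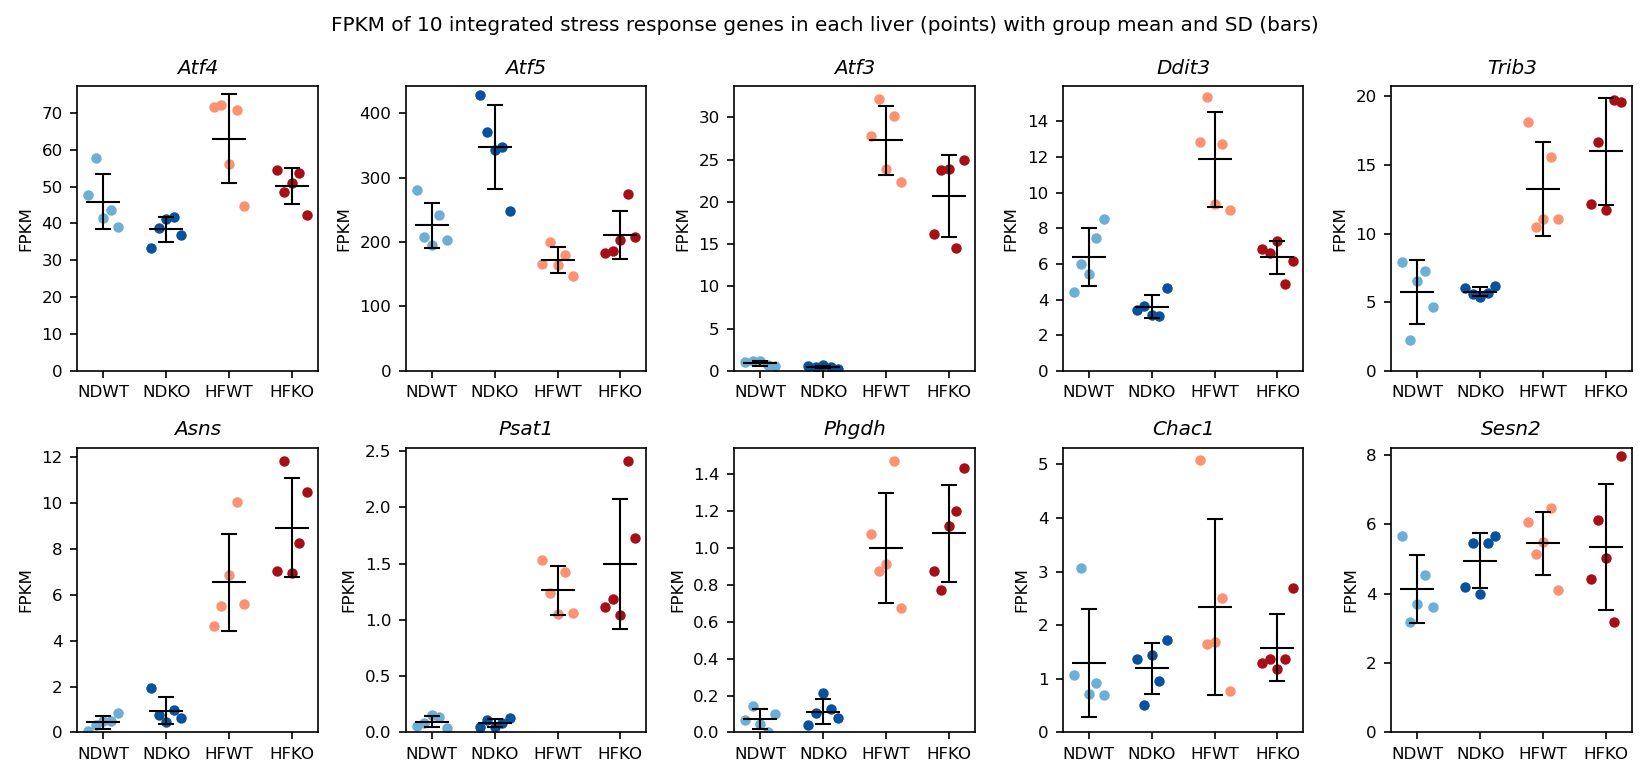
FPKM (vertical axes, linear from 0) of the 10 members in each of the 20 livers, by group, with replicates 1 to 5 from left to right in each group; points are livers, horizontal bars group means and whiskers SD. Atf3, Asns, Psat1 and Phgdh stand apart by diet, Atf5 is highest in NDKO, and Ddit3 in HFKO lies below every HFWT liver.

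Atf3, a stress-induced repressor and activator of the bZIP family (GRCm38 chromosome 1, 191170296 to 191183340), showed the widest separation. Its level was 1.04, 1.15, 1.13, 0.646 and 0.581 FPKM in the NDWT livers and 27.8, 32.1, 23.9, 30.1 and 22.4 FPKM in HFWT. In the libraries labelled TSP-1 null it was 0.537, 0.421, 0.674, 0.473 and 0.224 FPKM on the control diet and 16.2, 23.8, 23.8, 14.6 and 25.0 FPKM on CDAHFD. Every CDAHFD liver was more than 10 FPKM above every control diet liver of either label. The diet log2FC was 4.79 (SE 0.22, FDR 1.41e-12, 27.8-fold) in the libraries labelled WT and 5.22 (SE 0.22, FDR 9.84e-13, 37.3-fold) in those labelled TSP-1 null, with 22 to 48 and 9 to 25 fragments per control diet library. Median of ratios scaling gave log2FC 4.26 (FDR 1.07e-11) and 4.74 (FDR 4.86e-12). In the order of mean levels within a group, Atf3 moved from seventh or eighth of the 10 members on the control diet to the third on CDAHFD.

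Asns, which makes asparagine from aspartate and glutamine (chromosome 6, 7675169 to 7693254), was read at 0.079, 0.307, 0.514, 0.490 and 0.825 FPKM in NDWT, from 5 to 45 fragments. In HFWT it was at 4.63, 5.53, 6.87, 10.05 and 5.61 FPKM. The NDKO livers held 1.93, 0.756, 0.469, 0.984 and 0.633 FPKM and the HFKO livers 7.05, 11.8, 6.95, 8.25 and 10.5 FPKM. No control diet liver reached the lowest CDAHFD liver. The log2FC was 3.75 (SE 0.37, FDR 2.57e-08) in the libraries labelled WT and 3.21 (SE 0.37, FDR 2.36e-07) in those labelled TSP-1 null, or 13.4-fold and 9.25-fold. With median of ratios scaling the log2FC was 3.25 (FDR 4.22e-07) and 2.71 (FDR 4.91e-06).

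Phgdh and Psat1 carry out the first and the second step of serine synthesis from 3-phosphoglycerate, a route that hepatocytes of a protein-fed animal use little. Both were near the limit of detection on the control diet. Psat1 (chromosome 19, 15904678 to 15947337) had 0.061, 0.085, 0.158, 0.137 and 0.035 FPKM in NDWT and 0.046, 0.114, 0.050, 0.088 and 0.128 FPKM in NDKO, from 3 to 12 fragments a library. On CDAHFD it had 1.53, 1.24, 1.06, 1.43 and 1.06 FPKM in HFWT and 1.12, 1.19, 1.05, 2.41 and 1.73 FPKM in HFKO, from 78 to 203 fragments. The 2 diets did not overlap under either label (log2FC 2.83, SE 0.24, FDR 3.41e-09 and 3.06, SE 0.24, FDR 1.37e-09). Psat1 stayed called with median of ratios scaling (log2FC 2.41, FDR 5.16e-08 and log2FC 2.71, FDR 1.40e-08).

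Phgdh (chromosome 3, 98313170 to 98339990) followed the same order at a lower level. The NDWT livers held 0.069, 0.145, 0.045, 0 and 0.101 FPKM and the NDKO livers 0.039, 0.106, 0.215, 0.126 and 0.080 FPKM, from 0 to 10 fragments. The HFWT livers held 1.08, 0.875, 0.913, 1.47 and 0.675 FPKM and the HFKO livers 0.874, 0.772, 1.12, 1.20 and 1.44 FPKM, from 29 to 73 fragments. The lowest CDAHFD liver was more than 3 times the highest control diet liver. The log2FC was 2.70 (SE 0.27, FDR 3.5e-08) and 2.49 (SE 0.27, FDR 1.2e-07). Scaled by median of ratios, Phgdh had log2FC 2.33 (FDR 5.35e-07) and 2.12 (FDR 2.02e-06). The counts carry no molecular identifiers, so intervals and floors that rest on them cover counting error only.

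Trib3 (chromosome 2, 152337422 to 152344032), a target of ATF4 and CHOP that feeds back on both, stood at 7.95, 2.26, 6.56, 7.27 and 4.67 FPKM in NDWT and 18.1, 10.4, 11.05, 15.6 and 11.05 FPKM in HFWT. In the libraries labelled TSP-1 null it stood at 6.04, 5.59, 5.36, 5.68 and 6.22 FPKM on the control diet and 12.1, 16.7, 11.7, 19.7 and 19.6 FPKM on CDAHFD. The diets did not overlap, and the NDKO livers lay within 1 FPKM of each other. The log2FC was 1.28 (SE 0.26, FDR 0.000189) and 1.42 (SE 0.26, FDR 6.86e-05), and after median of ratios scaling it was 0.73 (FDR 0.0197) and 0.89 (FDR 0.00569).

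Ddit3 encodes CHOP, the factor that turns prolonged ER stress towards cell death (chromosome 10, 127290774 to 127296288). It was at 4.41, 6.02, 5.44, 7.45 and 8.54 FPKM in NDWT and at 12.8, 15.4, 9.36, 12.8 and 9.02 FPKM in HFWT. It was at 3.42, 3.65, 3.12, 3.10 and 4.68 FPKM in NDKO and at 6.82, 6.64, 7.30, 4.87 and 6.19 FPKM in HFKO. Under both labels each CDAHFD liver was above each control diet liver, while HFKO and NDWT lay at the same mean of 6.37 FPKM. The diet log2FC was 0.89 (SE 0.17, FDR 0.000134) and 0.81 (SE 0.17, FDR 0.000375). Both calls ended with median of ratios scaling (log2FC 0.34, FDR 0.101 and log2FC 0.29, FDR 0.168) and with quantile normalization (FDR 0.0600 and 0.335).

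Atf4 itself (chromosome 15, 80255184 to 80257540) was among the most abundant members, second to Atf5 in each group. Its levels were 47.8, 57.7, 41.4, 43.7 and 39.0 FPKM in NDWT and 71.5, 72.1, 56.0, 70.6 and 44.8 FPKM in HFWT. They were 33.4, 38.9, 41.1, 41.8 and 36.8 FPKM in NDKO and 54.6, 48.7, 51.1, 53.6 and 42.4 FPKM in HFKO. In the libraries labelled WT the diets overlapped through HFWT replicates 3 and 5, which lay below the highest NDWT liver, and in those labelled TSP-1 null they did not. The log2FC of 0.45 (SE 0.13, FDR 0.00377) and 0.38 (SE 0.13, FDR 0.0113) stayed under the fold threshold, and after median of ratios scaling the sign turned (log2FC -0.12, FDR 0.436 and log2FC -0.15, FDR 0.297). Atf4 therefore moved about as much as the median gene, and the mRNA does not measure ATF4 protein.

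Atf5 encodes a related bZIP factor whose mRNA is also translated under eIF2α phosphorylation and which is abundant in hepatocytes (chromosome 7, 44812257 to 44816658). It had the highest level of the 10 members in every group and was the one member with a lower call on CDAHFD. Its FPKM was 280, 209, 196, 243 and 204 in NDWT and 166, 201, 164, 180 and 147 in HFWT. It was 428, 370, 342, 348 and 248 in NDKO and 183, 186, 203, 275 and 208 in HFKO. The diets overlapped under both labels, by HFWT replicate 2 in the first and by HFKO replicate 4 in the second. The log2FC of -0.39 (SE 0.14, FDR 0.0157) in the libraries labelled WT stayed under the fold threshold, and that of -0.71 (SE 0.14, FDR 0.000132) in those labelled TSP-1 null passed it. After median of ratios scaling both passed, with log2FC -0.95 (FDR 5.50e-06) and -1.25 (FDR 2.14e-07).

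Chac1 and Sesn2 did not pass the test on diet. Chac1 (chromosome 2, 119351229 to 119354381) was at 1.08, 3.08, 0.721, 0.926 and 0.704 FPKM in NDWT and at 5.08, 1.65, 1.69, 2.51 and 0.777 FPKM in HFWT. In NDKO it was at 1.36, 0.511, 1.44, 0.955 and 1.72 FPKM and in HFKO at 1.30, 1.37, 1.19, 1.36 and 2.69 FPKM. Single livers set the spread: NDWT replicate 2 was above 4 of the 5 HFWT livers, and HFWT replicate 5 lay among the control diet livers. The log2FC was 0.78 (SE 0.43, FDR 0.108) and 0.41 (SE 0.43, FDR 0.403). The first became a call without NDWT replicate 2 (log2FC 1.12, FDR 0.0157) or without HFWT replicate 5 (log2FC 1.08, FDR 0.0239). These were the only calls among the 32 alternatives in the libraries labelled WT. Under median of ratios scaling the log2FC of Chac1 was 0.25 (FDR 0.617) and -0.09 (FDR 0.870).

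Sesn2 (chromosome 4, 132492032 to 132510501) ran from 3.19 to 5.66 FPKM in NDWT, 3.99 to 5.65 in NDKO, 4.11 to 6.48 in HFWT and 3.19 to 7.97 in HFKO. The 4 ranges overlapped, and the diet log2FC was 0.40 (SE 0.20, FDR 0.077) and 0.06 (SE 0.20, FDR 0.796). Scaling by median of ratios gave log2FC -0.15 (FDR 0.529) and -0.46 (FDR 0.0467), both under the fold threshold. HFWT replicate 5 was the lowest of its group for 7 of the 10 members, Sesn2 among them, and for none the highest. It also had the fewest genes above 0 in its group, 19504. Its median of ratios scaling factor was the lowest of the group as well, at 1.18 against 1.23 to 1.33. The same count over all genes was not made.

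**Figure D2:**
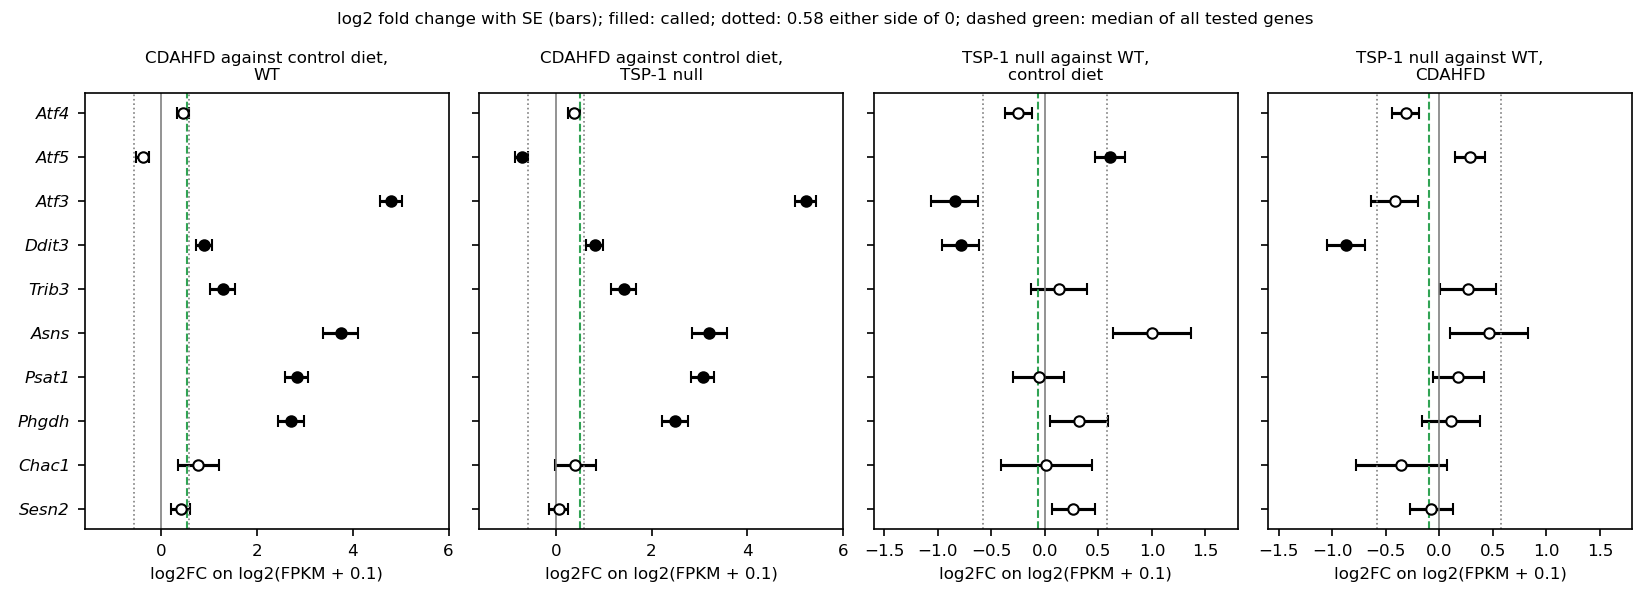
log2FC on the log2(FPKM + 0.1) scale (horizontal axes, wider for diet than for genotype) of the 10 members in the 4 comparisons; points are estimates, whiskers SE, filled points are called, dotted lines mark 0.58 either side of 0 and the dashed line the median of all tested genes. Atf3 lies farthest from 0 on diet at 4.79 and 5.22, Atf4 lies beside the median of all genes, and Ddit3 is called lower at -0.79 and -0.87 in both genotype comparisons.

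Markers of several cell types differed between the diets. Of 8 macrophage markers 7 were called higher on CDAHFD and 1, the Kupffer cell marker Clec4f, lower under both labels, and their summed level rose from 122 to 204 FPKM over the control diet livers to 552 to 1213 FPKM. All 7 stellate cell markers, all 5 tested of 6 cholangiocyte markers, 5 of 6 lymphocyte markers and all 3 tested of 5 neutrophil markers were called higher, as were 1 and 2 of 5 endothelial markers (WT and TSP-1 null labels), and 3 of 8 hepatocyte markers were called lower. Beside these counts, 44.1% and 41.9% of all tested genes were called higher, which the endothelial counts did not exceed, and 4.62% and 4% lower. After median of ratios scaling 8 of 8 hepatocyte markers were called lower under the WT label and 6 of 8 under the TSP-1 null label, and the macrophage, cholangiocyte and neutrophil counts did not change. The counts called higher then were 6 and 5 of 7 stellate cell, 4 and 3 of 6 lymphocyte and 0 and 1 of 5 endothelial markers, with 1 endothelial marker called lower under the WT label. With that scaling 22.7% and 22.2% of all tested genes were called higher and 15.4% and 13.6% lower. None of the cell type markers was at 0 in every library. Itgam and Ccr2 (macrophage), Krt7 (cholangiocyte) and Cd8a and Ms4a1 (lymphocyte) passed the filter on low values only through the CDAHFD livers. A diet difference was thus built into the testing of these markers. The part of cell makeup in the diet differences of the members was not tested, and in bulk tissue a change in the number of cells of a type cannot be told apart from a change in RNA per cell.

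Between genotype labels on the control diet, Atf5 was called higher and Atf3 and Ddit3 lower in the libraries labelled TSP-1 null, which is 3 of 10 members beside 4.77% of all tested genes (1.74% higher and 3.03% lower). Ddit3 fell by 0.79 on the log2 scale (SE 0.17, FDR 0.00602), the 5 NDKO livers reaching from 3.10 to 4.68 FPKM against 4.41 to 8.54 in NDWT. The ranges overlapped by 1 liver on each side, and the call held in all 32 alternatives. Atf5 was higher by a log2FC of 0.61 (SE 0.14, FDR 0.00696), with 4 of the 5 NDKO livers above every NDWT liver. Leaving out NDWT replicate 3 or 5 or NDKO replicate 1 or 2 took Atf5 under the fold threshold, at log2FC 0.53 to 0.58 with FDR 0.0161 to 0.0249.

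Atf3 fell by 0.84 on the log2 scale (SE 0.22, FDR 0.0172), from a mean of 0.909 ± 0.274 to 0.466 ± 0.165 FPKM (SD, n = 5). The call rested on 9 to 48 fragments per library and ended without NDWT replicate 3 (FDR 0.0501), with a pseudocount of 1 (FDR 0.104), with only the 2 groups in the fit (FDR 0.0745) and with voom on fragments (FDR 0.165). Asns was at 0.443 ± 0.276 FPKM in NDWT and 0.955 ± 0.577 in NDKO and did not pass (log2FC 1.00, SE 0.37, FDR 0.0783), but passed without NDWT replicate 5 (FDR 0.0367). The other 6 members had an FDR of 0.214 to 0.992. Of these, Chac1 lies 1.22 Mb and Trib3 34.2 Mb from Thbs1 on chromosome 2, and their log2FC was 0.01 and 0.13. Between these groups 1 of 8 hepatocyte and 1 of 8 macrophage markers were called higher and 1 of 7 stellate cell markers lower in the libraries labelled TSP-1 null. All tested genes had 1.74% called higher and 3.03% lower. Median of ratios scaling gave 3 of 8 hepatocyte markers higher, beside 348 of the 14524 tested genes. With 1 library left out 1 to 3 hepatocyte markers were called higher. The part of cell makeup in the differences of the members was not tested.

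On CDAHFD, Ddit3 alone of the 10 members was called, lower in the libraries labelled TSP-1 null, beside 0.496% of all tested genes called in either direction and 0.33% called lower. The highest HFKO liver, at 7.30 FPKM, was below the lowest HFWT liver, at 9.02 FPKM, and groups were lower without overlap for 4.13% of all tested genes. The mean was 11.9 ± 2.66 FPKM in HFWT and 6.37 ± 0.924 in HFKO (SD, n = 5; log2FC -0.87, SE 0.17, limma FDR 0.0184). The call ended without HFWT replicate 2 (log2FC -0.77, FDR 0.0561) or without HFKO replicate 4 (log2FC -0.78, FDR 0.0664). Atf4 and Atf3 had means of 50.1 ± 4.89 and 20.7 ± 4.88 FPKM in HFKO against 63.0 ± 12.2 and 27.3 ± 4.11 in HFWT and were not called (FDR 0.213 and 0.341). The other 7 members had an FDR of 0.292 to 0.877. None of the cell type markers was called between these groups, with 0 of 8 macrophage markers and a summed level of 909 to 1213 FPKM in HFWT and 552 to 1179 FPKM in HFKO. The summed level of the cholangiocyte markers was 292 to 488 FPKM in HFWT and 182 to 360 FPKM in HFKO. Voom called 1 of them, and with 1 library left out 0 to 1 were called lower. The part of cell makeup in the difference of Ddit3 was not tested.

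The diet by genotype interaction was called for 0 of the 10 members, beside 0.647% of all tested genes. At an unadjusted p under 0.05 the limma fit gave 0 members, and voom on fragments called 0. For Ddit3 the interaction was -0.08 (SE 0.25, FDR 0.919), for Atf3 0.43 (SE 0.32, FDR 0.574) and for Atf5 -0.32 (SE 0.20, FDR 0.47). The calls on 1 diet and not on the other are thus not shown to differ between diets. The comparisons share groups of livers, NDWT for example entering both a diet and a genotype comparison, so their values are not independent of each other.

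Whether members rose and fell together from liver to liver was read within each diet, as deviations of log2(FPKM + 0.1) from the group mean in 10 livers. Over the 90 relations of 45 pairs in 2 diets, 0 passed the Benjamini-Hochberg correction and 7 had an exact permutation p under 0.05, of which 6 were on CDAHFD. The correlation was above 0 in 36 of 45 pairs on CDAHFD and in 16 of 45 on the control diet. The pairs of a diet share members and unscaled libraries, so they are not independent of each other. No such count was made for pairs of other genes, and the difference between the diets was not tested. Trib3 and Psat1 on CDAHFD had r = 0.814 (two-sided exact permutation p = 0.0101, adjusted 0.244) and rho = 0.879 (exact p = 0.00125, adjusted 0.113), and r = 0.802 without the 2 livers farthest from the median of Trib3. Atf3 and Ddit3 ran against each other on the control diet (r = -0.846, exact permutation p = 0.00653, adjusted 0.244; rho = -0.636, exact p = 0.0698, adjusted 0.492), with r = -0.646 without the 2 farthest livers. On CDAHFD the same pair had r = 0.711 (exact permutation p = 0.0143, adjusted 0.258) and rho = 0.576 (exact p = 0.0898, adjusted 0.505), with r = 0.808 without the 2 farthest livers.

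Over all 20 livers, the tested gene whose deviations were most like those of a member was Ythdf1 for Atf4 (r = 0.832), Dusp23 for Atf5 (r = 0.855), Rgs10 for Atf3 (r = 0.862) and Srgap3 for Ddit3 (r = 0.782). For Asns it was Gm10221 (r = 0.813), for Psat1 Rpl36al (r = 0.720) and for Phgdh Gemin7 (r = 0.858). For Chac1 it was Acox3 (r = 0.865) and for Sesn2 Akap13 (r = 0.811). None of the partners named here was another member, and each is the highest over all other tested genes, which share libraries and scaling.

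Of the 4 eIF2α kinases upstream of the members, 2 were called higher on CDAHFD under both labels, those for ER stress and for amino acid shortage. This stands beside 44.1% and 41.9% of all tested genes called higher. The kinases' median log2FC was 0.62 and 0.53, near the all-gene medians of 0.53 and 0.50. After median of ratios scaling 0 and 1 of the 4 were called higher, beside 22.7% and 22.2% of all tested genes. Eif2ak3, the ER stress kinase PERK, was at 3.20, 3.12, 5.82, 3.62 and 3.70 FPKM in NDWT and 12.1, 7.62, 6.47, 7.33 and 7.79 in HFWT. It was at 2.11, 2.23, 2.10, 2.57 and 2.18 FPKM in NDKO and 6.74, 7.73, 6.99, 7.20 and 7.97 in HFKO. The diets did not overlap (log2FC 1.07, FDR 4.21e-06 and 1.67, FDR 1.41e-08), and the second call alone held with median of ratios scaling. On the control diet Eif2ak3 was also lower in every NDKO liver than in any NDWT liver (log2FC -0.74, FDR 0.00404), as was Ddit3 on average. Eif2ak4, the amino acid sensor GCN2, had log2FC 0.89 and 0.73 on diet, not called after median of ratios scaling. The heme sensor Eif2ak1 (log2FC 0.16 and -0.02) and the double-stranded RNA sensor Eif2ak2 (log2FC 0.35 and 0.32) were not called.

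Among the subunits of eIF2 and its exchange factor and their regulators, 4 of 12 were called higher in the libraries labelled WT and 2 of 12 in those labelled TSP-1 null, where 44.1% and 41.9% of all tested genes were. After median of ratios scaling 0 were called higher under either label, and 2 and 0 lower. The shares of all tested genes were then 22.7% and 22.2% higher and 15.4% and 13.6% lower. Impact, an inhibitor of GCN2, had the largest change of the list at log2FC 1.07 and 1.04. Ppp1r15a (GADD34), which recruits the phosphatase that ends the response and is itself a target of the program, had log2FC 0.46 (FDR 0.0466) and 0.48 (FDR 0.0383), under the fold threshold. Of 7 partner and related bZIP factors, 4 were called higher in both, beside the same 44.1% and 41.9%. Median of ratios scaling gave 3 higher and 1 lower in the libraries labelled WT and 2 higher and 1 lower in those labelled TSP-1 null. These scaled counts stand beside the scaled shares just given. Nupr1, a small stress-induced chromatin protein, had log2FC 3.32 and 2.68, Batf 2.30 and 1.51, Cebpd 2.04 and 0.85 and Nfe2l2 (NRF2) 0.79 and 1.04. After that scaling Nfe2l2 was called in neither (log2FC 0.23 and 0.50), nor was Cebpd in the libraries labelled TSP-1 null (log2FC 0.32). On the control diet Cebpd was called higher (log2FC 1.15) and Nfe2l2 lower (log2FC -0.69) in the libraries labelled TSP-1 null.

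**Figure D3:**
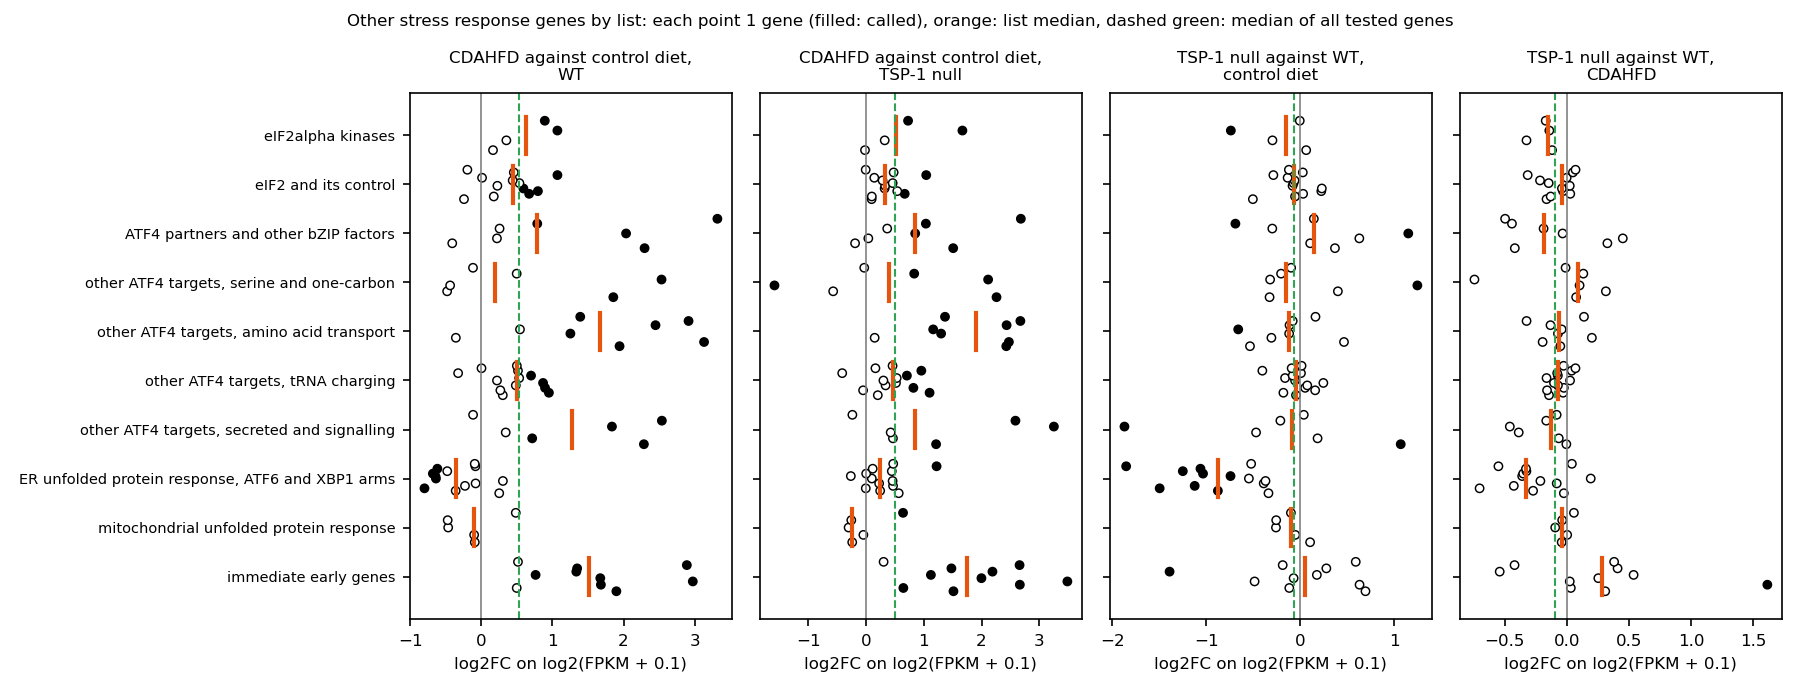
log2FC on the log2(FPKM + 0.1) scale (horizontal axes) of the other genes of the stress response, 1 row per list; points are genes, filled where called, the thick bar is the list's median and the dashed line the median of all tested genes. Amino acid transporters and immediate early genes lie to the right on diet, with 6 of 8 and 8 of 10 called higher in WT, beside 44.1% of all tested genes. The ATF6 and XBP1 arm lies to the left for genotype on the control diet, with 8 of 13 called lower, beside 3.03% of all tested genes.

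Amino acid transporters, which are targets of ATF4 next to Asns, moved with diet: of 8 tested of 9, 6 were called higher in the libraries labelled WT and 7 in those labelled TSP-1 null, and the same numbers were called higher after median of ratios scaling. The shares of all tested genes called higher were 44.1% and 41.9%, and 22.7% and 22.2% after that scaling. Slc1a5, a glutamine carrier, was at 0.455, 0.678, 0.419, 0.701 and 0.398 FPKM in NDWT and 6.24, 6.13, 4.84, 6.45 and 3.54 in HFWT (log2FC 3.13, FDR 5.26e-11), and its log2FC was 2.47 (FDR 1.62e-09) in the libraries labelled TSP-1 null. Slc7a11 and Slc7a1 passed the filter on low values only through the CDAHFD livers, as Psat1 and Phgdh did. The cationic amino acid carrier Slc7a1 had log2FC 2.45 and 2.43 and the neutral amino acid carrier Slc1a4 1.94 and 2.43. Slc7a11, the cystine importer, had 0 to 3 fragments in the NDWT livers and 0 in all 5 NDKO livers, which allows up to 3 fragments in each, against 130 to 168 fragments in HFWT and 60 to 155 in HFKO. No fold change is given for it. Slc38a2 was not called, with log2FC -0.36 and 0.15, but was called lower in the libraries labelled WT after median of ratios scaling.

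Serine and one-carbon genes next to Psat1 and Phgdh did not move as 1 group. Of 6 tested of 8, 2 were called higher in the libraries labelled WT, and 3 higher and 1 lower in those labelled TSP-1 null. After median of ratios scaling the counts were 2 higher and 3 lower, and 2 higher and 2 lower. Among all tested genes 44.1% and 41.9% were called higher and 4.62% and 4% lower. That scaling gave 22.7% and 22.2% of all tested genes higher and 15.4% and 13.6% lower. Mthfd2, the mitochondrial folate enzyme, was at 0.221 to 0.316 FPKM in NDWT and 1.42 to 2.68 in HFWT (log2FC 2.54, FDR 1.13e-09), and at 0.113 to 0.314 in NDKO and 1.015 to 1.55 in HFKO (log2FC 2.11, FDR 1.6e-08). Like Psat1 and Phgdh it passed the filter only through the CDAHFD livers, so its being tested required that difference. Aldh18a1, of proline synthesis, had log2FC 1.86 and 2.26. Psph, the last step of serine synthesis after Psat1, had log2FC 0.50 (FDR 0.002, under the fold threshold) and 0.83 (FDR 1.16e-05, called, but not after median of ratios scaling at log2FC 0.35). Shmt2, which converts serine to glycine, had -0.12 and -0.03, and after that scaling was called lower in the libraries labelled WT (log2FC -0.68). Cth, which makes cysteine from cystathionine, was called lower on diet in the libraries labelled TSP-1 null (log2FC -1.58) and higher in NDKO than in NDWT (log2FC 1.25, FDR 0.00126).

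Of 13 genes of tRNA charging and export, 4 were called higher in each label group, Cars and Gars with the largest log2FC in the libraries labelled WT at 0.95 and 0.90. These counts stand beside 44.1% and 41.9% of all tested genes, and after median of ratios scaling 0 were called higher under either label, and 1 and 2 lower. Among 6 tested of 8 secreted and signalling targets, 4 were called higher in the libraries labelled WT and 3 in those labelled TSP-1 null, and after median of ratios scaling 3 higher and 1 lower, and 2 higher and 1 lower. These targets stand beside the same 44.1% and 41.9%. After that scaling 22.7% and 22.2% of all tested genes were called higher and 15.4% and 13.6% lower. Gdf15, a stress hormone that lowers food intake, was at 7.68, 2.72, 6.10, 9.28 and 5.71 FPKM in NDWT and 1.05, 2.35, 3.41, 0.743 and 1.26 in NDKO. It was at 30.8, 19.8, 18.5, 23.98 and 15.5 FPKM in HFWT and 14.7, 22.2, 20.7, 9.56 and 13.2 in HFKO. All CDAHFD livers were above all control diet livers (log2FC 1.84, FDR 0.000131 and 3.25, FDR 1.48e-07), and 1 NDWT liver lay among the NDKO livers (log2FC -1.87, FDR 0.00234).

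Ddit4 (REDD1), an inhibitor of mTORC1, had log2FC 2.29 and 1.21 on diet, the second not called after median of ratios scaling (log2FC 0.69, FDR 0.0601). Its log2FC of 1.07 for NDKO against NDWT (FDR 0.0322) ended in 9 alternatives, with FDR up to 0.0966. Among these were the fits without NDWT replicate 2, 4 or 5 or NDKO replicate 1 or 5. Tnfrsf10b, a death receptor induced by CHOP, had log2FC 2.54 and 2.59 and passed the filter only through the CDAHFD livers. Fgf21, a fasting hormone that ATF4 can induce, was not called: it ran from 17.8 to 31.3 FPKM in NDWT, 5.53 to 32.8 in NDKO, 15.3 to 51.6 in HFWT and 16.5 to 29.9 in HFKO (log2FC 0.34, FDR 0.431 and 0.43, FDR 0.329).

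**Figure D4:**
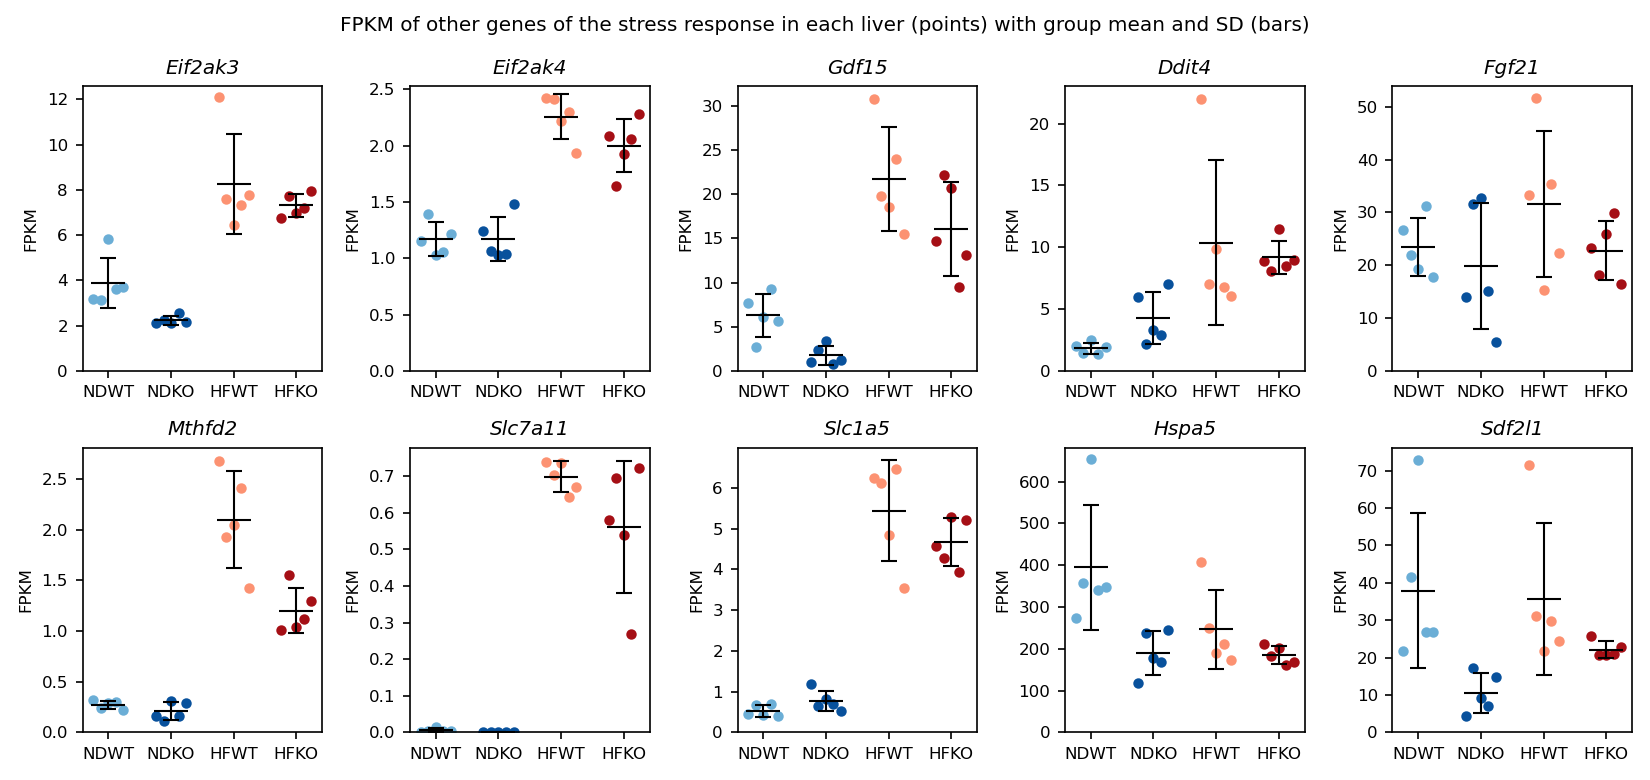
FPKM (vertical axes, linear from 0) of 10 other genes of the stress response in each of the 20 livers by group, replicates 1 to 5 from left to right; points are livers, horizontal bars group means and whiskers SD. Gdf15, Mthfd2, Slc7a11 and Slc1a5 stand apart by diet, Fgf21 does not, and NDWT replicate 3 is the highest liver for Hspa5 (655 FPKM) and Sdf2l1 (72.8 FPKM).

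The ATF6 and XBP1 arms of the ER response, which run beside PERK and ATF4 and raise chaperones, did not follow Atf3, Asns and Trib3 on diet. Of 13 genes, 5 were called lower in the libraries labelled WT, among them Creld2 (log2FC -0.80) and Hspa5 (BiP, log2FC -0.68), and 1, Sdf2l1, higher in those labelled TSP-1 null (log2FC 1.22). The matching shares of all tested genes were 4.62% lower under the WT label and 41.9% higher under the TSP-1 null label. The count of 5 fell to 1 without NDWT replicate 3 and likewise without HFWT replicate 5. With median of ratios scaling 10 were called lower in the libraries labelled WT, and 1 lower and 0 higher in those labelled TSP-1 null. All tested genes then had 15.4% and 13.6% called lower and 22.7% and 22.2% called higher. On the control diet, where Ddit3, Atf3 and Eif2ak3 were lower in NDKO, 8 of the 13 were called lower and 0 higher, and 7 without NDWT replicate 3. In that comparison 3.03% of all tested genes were called lower and 1.74% higher. Sdf2l1 had log2FC -1.85, Creld2 -1.497, Hyou1 -1.25 and Dnajb9 -1.12. Hspa5 was at 273, 358, 655, 340 and 347 FPKM in NDWT and 119, 238, 178, 170 and 244 in NDKO, without overlap (log2FC -1.04, FDR 0.00749).

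Of 5 genes of the mitochondrial unfolded protein response, 0 were called in the libraries labelled WT and 1, the protease Lonp1, was called higher in those labelled TSP-1 null (log2FC 0.64). This stands beside 44.1% and 41.9% of all tested genes called higher. After median of ratios scaling Lonp1 was not called (log2FC 0.11), and 4 of the 5 were called lower under both labels, beside 15.4% and 13.6% of all tested genes. Of 10 immediate early genes, which respond within minutes to growth factors, stress or handling and to which Atf3 is also counted, 8 and 9 were called higher on CDAHFD, and 6 and 8 after median of ratios scaling. For all tested genes the shares were 44.1% and 41.9%, and 22.7% and 22.2% after that scaling. Among the 10 genes, 1 passed the filter on low values only through the CDAHFD livers. Fos had log2FC 2.97 and 3.49 and Klf6 2.89 and 2.66. The part of these genes' stimuli in the level of Atf3 was not tested. Between genotype labels, Jun was called lower on the control diet (log2FC -1.39, FDR 0.0207; not called without NDWT replicate 2 or NDKO replicate 1) and Egr1 higher on CDAHFD (log2FC 1.61, FDR 0.0321; not called in 9 alternatives, FDR up to 0.0933).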

How the data were processed

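The authors sequenced poly(A) RNA of 1 liver section per mouse on an Illumina HiSeq instrument from strand-specific libraries and deposited FPKM for 38924 mouse genes in 20 libraries. The series description names the right medial lobe and the paper's methods the right lateral lobe. The submitters' processing notes name STAR 2.5.2 and featureCounts of Subread 1.5.1 and the human build GRCh38, whereas the deposited table holds mouse gene identifiers with GRCm38 coordinates; whether fragments were counted by strand is not given in the sources used here. FPKM times gene length and library total came out whole (within 0.25) for 100% of the values checked, which gave back fragments per gene; they served for depth and for voom only.

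The 14524 genes whose FPKM exceeded 0.5 in 5 or more libraries were tested with limma 3.58.1 in R 4.3.3 (eBayes with trend, a mean per group, two-sided) on log2(FPKM + 0.1). A call needs an FDR under 0.05 over all tested genes and an absolute log2FC above 0.58. The method was tested on simulated data. Samples were grouped by their labels, with 5 mice a group. Correlations used exact permutation within groups over 14400 arrangements. Promoters were read from the RefSeq table of GRCm38.p6. Tables and figures used Python 3.11.15, pandas 2.3.3 and matplotlib 3.10.9. The alternatives were pseudocounts of 0.01 and 1, 3 other filters, median of ratios and quantile scaling, only the 2 groups compared, no trend, voom, no fold threshold, a replicate block and each library left out.

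The members and lists were chosen with earlier results of these data known. All members are named. From the other lists, at most the 4 called genes with the largest absolute log2FC per list and comparison are named, plus Fgf21, Gdf15, Ddit4, Ppp1r15a, the eIF2α kinases, Psph, Shmt2 and Mthfd2. Slc38a2 and Clec4f, and Hspa5 on the control diet, were named after their values were seen. The gene most like Trib3 is not reported here.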

Additional observations from a re-analysis of the deposited data

Results flagged for a closer look

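Of 40 groups of 5 livers (10 members in 4 groups), 3 held a liver whose gap to its nearest neighbour was over 0.71 of the group's range, where chance gives about 1 in 20. Chac1 was at 3.08 FPKM (84 fragments) in NDWT replicate 2, against 0.704 to 1.08 in the other NDWT livers, and at 2.69 FPKM (84 fragments) in HFKO replicate 5, against 1.19 to 1.37 in the other HFKO livers. Atf5 was at 275 FPKM in HFKO replicate 4, against 183 to 208 in the other HFKO livers. HFKO replicate 4 was also the highest of its group for Trib3 and Psat1 and the lowest for Atf3, Ddit3 and Sesn2. The cause was not tested.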

How the results depend on the processing

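The counts of members called were 6 and 7 on diet (WT and TSP-1 null labels), 3 and 1 between labels (control diet and CDAHFD) and 0 for the interaction. With any 1 library left out they ran from 6 to 7, 7 to 7, 1 to 3, 0 to 1 and 0 to 0. The low ends were 1 without NDWT replicate 3 and 0 without HFWT replicate 2 or HFKO replicate 4; the cause was not tested. The other alternatives left these counts within 1.5 times. Over 17 called member values and 544 recomputations, 530 kept direction and call, 14 kept direction and lost the call and 0 reversed; of 33 uncalled values, 7 of 1046 recomputations gave a call. Same-numbered livers did not deviate together (r from -0.133 to 0.0807), so numbers do not pair the samples; with the replicate block the counts were 6, 7, 3, 1 and 0, and no member's call changed. No correlation between members passed with Spearman or with median of ratios scaling, as with Pearson (0 of 90). Control diet levels of Psat1, Phgdh, Asns and Atf3 rest on 0 to 109 fragments a library, which limits their fold changes.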
